A study of Mus musculus with 14 samples.

Results

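The EGR, NR4A and IER genes and Myc are early genes, whose transcripts appear within the first hours after a signal reaches a cell. The 10 genes described here, Egr1, Egr2, Egr3, Nr4a1, Nr4a2, Nr4a3, Ier2, Ier3, Ier5 and Myc, were taken by symbol from 40800 genes in a table of RNA sequencing counts, with the transcript of highest total count standing for its gene. Mouse embryonic fibroblasts, connective tissue cells grown from mouse embryos, were sequenced in 14 libraries, 2 in each of 7 groups. The control cells, labelled 0 h, grew in ordinary medium with serum. The starved cells were washed and then kept for 3, 6 or 12 h in medium lacking either amino acids or glucose, with serum that had been dialyzed to remove small molecules. No sex, age or strain of the embryos is given in the labels, nor is a genetic change. Starved cells were frozen in dialyzed serum and control cells, whose medium was not changed, in ordinary serum. The only control is the one at 0 h. Starvation, the wash, the fresh medium, the serum and the added hours in culture therefore cannot be told apart in a comparison with it. Both starvations at the same hour, by contrast, share that handling. Whether replicate libraries stem from separate cultures is not stated, so the p-values reflect the spread of these samples alone, and that spread may be technical. In cultures sequenced in bulk, fewer cells of a type and less RNA per cell cannot be told apart.

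EGR1, EGR2 and EGR3 are zinc-finger transcription factors that bind GC-rich sites, and their activity is held back by the NAB proteins. NR4A1, NR4A2 and NR4A3 are orphan nuclear receptors, regulated mainly through how much of them is made, and they bind DNA alone or, for NR4A1 and NR4A2, with retinoid X receptors. IER2, IER3 and IER5 are named for their immediate early response to stimuli. IER3 acts in survival signalling, and IER5 is known as a regulator of heat shock factor HSF1 together with the phosphatase PP2A. MYC, with its partner MAX, drives genes of ribosome production, metabolism and the cell cycle. In fibroblasts these genes are classical targets of serum and growth factors, through the MAP kinase cascade and the serum response factor SRF, and of cyclic AMP, through CREB. Many of their transcripts are short-lived, since AU-rich elements in them recruit decay factors.

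Promoter sequence was at hand for 6 of the 10 members, as 250 bases upstream of each start in RefSeq for the build GRCm38.p6. The windows of Nr4a1 and Nr4a2 are shown whole, and those of Nr4a3 and Egr2 as stretches of 28 bases that hold 2 and 1 of their cores, because these windows hold elements of the CREB and SRF routes. Capitals mark the core of the cyclic AMP response element, TGACG or CGTCA on the other strand, and, in Egr2, also the CArG box that SRF binds, written as CC, 6 A or T bases and GG. Each sequence runs 5′ to 3′ on the strand of its gene.
Nr4a1, chr15:101266596-101266845, plus strand: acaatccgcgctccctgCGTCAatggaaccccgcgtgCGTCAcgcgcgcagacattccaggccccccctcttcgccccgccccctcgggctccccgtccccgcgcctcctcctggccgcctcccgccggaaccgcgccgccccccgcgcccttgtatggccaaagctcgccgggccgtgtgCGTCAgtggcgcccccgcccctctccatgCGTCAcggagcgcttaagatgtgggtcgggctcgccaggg
Nr4a2, chr2:57124004-57124253, minus strand: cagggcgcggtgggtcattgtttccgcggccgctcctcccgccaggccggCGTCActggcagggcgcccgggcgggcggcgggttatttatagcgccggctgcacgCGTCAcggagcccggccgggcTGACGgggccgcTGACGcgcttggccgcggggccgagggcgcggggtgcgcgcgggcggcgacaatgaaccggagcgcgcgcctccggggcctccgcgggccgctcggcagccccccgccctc
Nr4a3, chr4:48045088-48045115, plus strand: atgtCGTCAcatTGACGtctcgcattcc
Egr2, chr10:67537795-67537822, plus strand: gtCCATATATGGgcagcgaCGTCAcggg

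The TGACG core occurred 4 times in the window of each NR4A gene. Its copies lay 233, 213, 69 and 40 bases upstream of the start in Nr4a1, 200, 144, 123 and 111 bases upstream in Nr4a2, and 231, 213, 205 and 147 bases upstream in Nr4a3. In GENCODE's annotation 152 bases of the Nr4a3 window lie in an annotated exon, as do up to 61 bases of an Egr2 window, so that a core there can lie in transcribed sequence. Of the 32851 such windows at hand, searched on both strands, 17.8% held the core at least once and 0.14% held it 4 or more times. Egr2 has 5 annotated starts, and 3 of its windows, which overlap one another, held the core 2 times, while 4 held a CArG box, found in 1.47% of all windows. The windows of Ier3 and Ier5 held neither. None of the 6 members' windows held the complete element TGACGTCA, found in 1.55% of all windows, an EGR site GCGTGGGCG (0.536%), a site of the C/EBP and ATF type TGATGNAA (3.45%) or an AP-1 site TGANTCA (6.75%). TGACG is part of TGACGTCA, so these searches overlap.

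Reads per library, with 1 transcript per gene, ranged from 35270758 to 55349652, and levels are given as CPM, reads of a gene relative to the reads of its library, with library totals adjusted by the trimmed mean of M values (TMM). The fibroblast label was checked with 10 markers, of which 8 passed the filter on low counts. Sums of marker levels in this paragraph are CPM of the plain library totals, without TMM. Their summed level was 7880 to 8670 CPM in the control libraries, 2570 to 2830 after 12 h without amino acids and 5290 to 5330 after 12 h without glucose, with Lum at 0 reads and Thy1 at 2 reads over all 14 libraries. After 12 h without amino acids, 7 of the 8 fell and Fn1 (log2 0.20) rose. Markers of macrophages (2 of 6 tested) summed to 15.2 to 22.3 CPM over the libraries. Of these, Csf1r had 9045 reads over all 14 libraries, Cd68 2371, Lyz2 59 and Ptprc 4, and Adgre1 and Tyrobp had 0. The skeletal muscle markers (3 of 6 tested) summed to 1.52 to 6.7 CPM. Markers of neural cells (1 of 6 tested, Map2) summed to 14.7 to 34.8 CPM, and the 5 of epithelium to at most 0.376 CPM. Endothelial markers (4 of 5 tested) summed to 4.43 to 5.36 CPM in the control libraries and 12.3 to 23.4 CPM in the starved ones, where Kdr rose in every group, while Tie1 had 2 reads in all. The part of these shifts in the results below was not tested.

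All 10 genes were higher after 3 h without amino acids than in the control, and most then fell back. Against the control, 10 of 10 were higher at 3 h, in a comparison in which 27.9% of the 17696 tested genes were called higher and 32.1% lower. At 6 h 9 were higher and 1, Ier3, was lower, beside 32.3% and 33.3% of all genes. At 12 h 5 were higher and 3 lower, beside 34.9% and 32% of all genes. The median log2 fold change of the 10 was 3.44 at 3 h, 2.30 at 6 h and 0.21 at 12 h, against medians of -0.07, -0.01 and 0.06 over all tested genes. Calls are at a Benjamini-Hochberg adjusted p below 0.05 in edgeR's quasi-likelihood test. Nr4a3 was too low in the control for the count filter and entered through the starved groups, so that it could hardly have been called lower. Without it, 9 of 9 were higher at 3 h, 8 were higher and 1 lower at 6 h, and 4 were higher and 3 lower at 12 h. Scaling by library totals instead of TMM moved the median of all genes by -0.18 at 3 h and 0.13 at 12 h, and the share of higher among all calls at 3 h from 46.5% to 34.2%.

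Most of the genes were higher than in the control after 3 h without glucose, with a smaller median than without amino acids, and by 12 h the EGR and IER genes were below the control. At 3 h 8 of the 10 were higher and Egr1 was lower, beside 20.3% and 23.1% of all genes. At 6 h 4 were higher and 3 lower, beside 23.3% and 24.2%. At 12 h 3 were higher, namely Nr4a2, Nr4a3 and Myc, and 6 lower, namely the 3 EGR and the 3 IER genes, beside 30.4% and 28%. Leaving out Nr4a3, 7 were higher at 3 h, 4 at 6 h and 2 at 12 h, with the same number lower. Egr2 and Egr3 were below the count filter at 12 h without glucose, so that they could hardly have been called higher there. The median log2 fold change of the 10 was 1.65, 0.28 and -0.79 at the 3 times. With library totals the median of all genes moved by -0.17, -0.13 and -0.10, and the share of higher among all calls went from 46.8% to 25.7% at 3 h and from 49% to 33.1% at 6 h. The count of 3 at 12 h was not stable: with only the control and the 12 h glucose libraries in the fit it was 1, since Nr4a2 (adjusted p = 0.0692) and Nr4a3 (adjusted p = 0.062) no longer passed, and it was also 1 without control replicate 1. The summed level of the 10 genes was 355 and 331 CPM in the control libraries, 3253 and 3298 CPM after 3 h without amino acids and 811 and 863 CPM after 3 h without glucose. At 12 h, with TMM scaling, it was below both control libraries in either starvation. It was 318 and 327 CPM without amino acids and 220 and 218 CPM without glucose. The lower sum without amino acids rests on this scaling. The TMM factors were 1.161 and 1.149 in those libraries, against 1.052 and 1.055 in the control. Egr1 and Myc, with means of 1352 and 716 CPM after 3 h without amino acids, weighed most in the sum of that group.

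**Figure D1:**
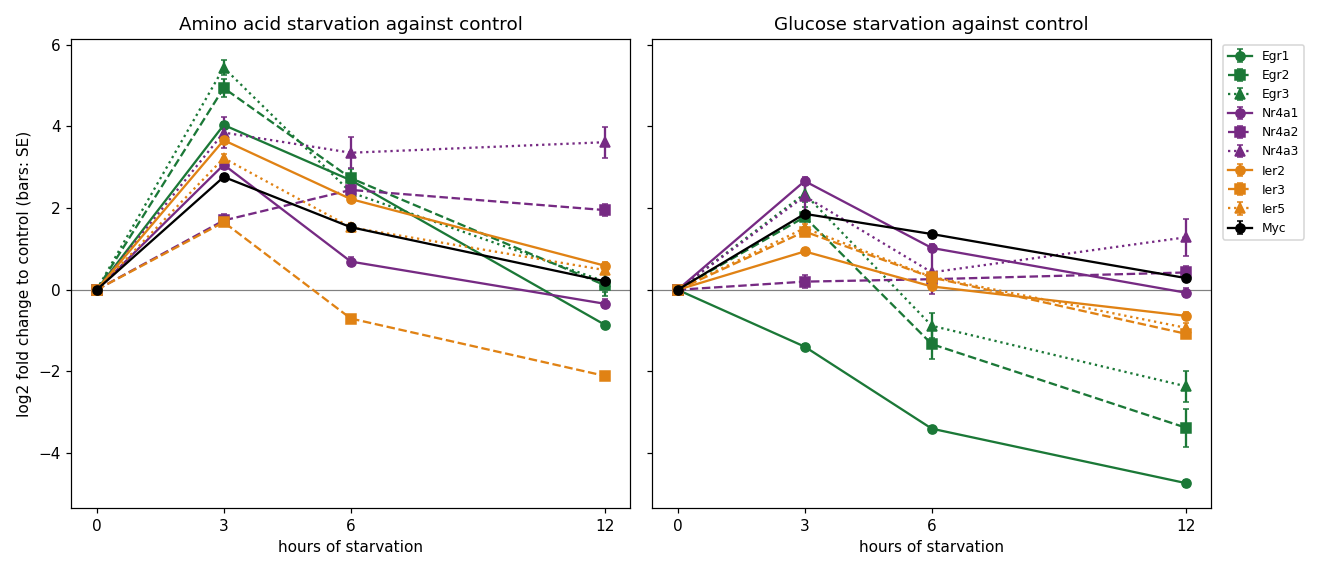
Log2 fold change to the control (y axis) of each of the 10 genes at 3, 6 and 12 h (x axis, hours) of amino acid and of glucose starvation, fitted over all 14 libraries, with bars of 1 standard error. All 10 genes lie above 0 at 3 h of amino acid starvation, whereas Egr1 lies below 0 at each time of glucose starvation.

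Egr1, the EGR gene with the most reads here, separated the starvations most widely. Its level was 82.1 and 82.6 CPM in the control libraries, 1361 and 1343 CPM after 3 h without amino acids, 532 and 525 CPM after 6 h and 43.1 and 47.7 CPM after 12 h. Without glucose it was 31.2 and 31.6 CPM after 3 h, 7.59 and 7.97 CPM after 6 h and 3.42 and 2.66 CPM after 12 h. No starved group overlapped the control, and each step down the 7 group means was larger than the spread between libraries. Against the control, Egr1 rose 16.4-fold after 3 h without amino acids (log2 4.04 ± 0.06, SE; edgeR adjusted p = 4.25e-28) and was lower by 12 h (log2 -0.86 ± 0.06; edgeR adjusted p = 3.61e-13). Under glucose starvation it fell at every time, by a log2 of -1.39 ± 0.06 at 3 h (edgeR adjusted p = 8.94e-17), -3.40 ± 0.08 at 6 h (edgeR adjusted p = 2.69e-24) and -4.74 ± 0.08 at 12 h (edgeR adjusted p = 8.76e-27). The control mean was 27.1 times the mean after 12 h without glucose. Egr1 was the only member that fell after 3 h without glucose.

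Egr2 and Egr3, close relatives of Egr1, were scarce in the control and showed larger fold changes after 3 h without amino acids. Egr2 had 0.698 and 1.18 CPM in the control, 31.3 and 26.7 CPM after 3 h without amino acids, 6.83 and 5.75 CPM after 6 h and 0.854 and 1.17 CPM after 12 h. After glucose removal it had 3.13 and 3.35 CPM after 3 h, 0.288 and 0.446 CPM after 6 h, and 0.0371 and 0.159 CPM, or 2 and 6 reads, after 12 h. The 12 h amino acid libraries lay within the control's range, and the 12 h glucose libraries were the lowest. Egr2 rose 30.7-fold (log2 4.94 ± 0.21; edgeR adjusted p = 3.64e-18) at 3 h without amino acids and 3.44-fold (log2 1.78 ± 0.24; edgeR adjusted p = 5.12e-07) at 3 h without glucose. It fell after 6 h without glucose (log2 -1.33 ± 0.36; edgeR adjusted p = 0.0027) and after 12 h (log2 -3.38 ± 0.46; edgeR adjusted p = 3.12e-07). The call at 6 h was lost without control replicate 2 (adjusted p = 0.0902).

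Egr3 had 0.807 and 0.569 CPM in the control, 30.9 and 29.2 CPM after 3 h without amino acids, 3.73 and 3.50 CPM after 6 h and 0.773 and 0.812 CPM after 12 h. Under glucose starvation Egr3 had 3.70 and 3.35 CPM after 3 h, 0.345 and 0.396 CPM after 6 h and 0.111 and 0.159 CPM, 6 reads each, after 12 h. Its levels after 6 h without amino acids and after 3 h without glucose overlapped, and so did those of the control and 12 h without amino acids. The rise at 3 h without amino acids was 43.5-fold (log2 5.44 ± 0.18; edgeR adjusted p = 1.37e-20), the largest fold change to the control among the 10 genes. After 3 h without glucose Egr3 rose 5.11-fold (log2 2.35 ± 0.21; edgeR adjusted p = 1.87e-10). It fell after 12 h without glucose (log2 -2.36 ± 0.37; edgeR adjusted p = 3.12e-06). Its fall after 6 h without glucose (log2 -0.88 ± 0.31; edgeR adjusted p = 0.0206) was not called without control replicate 1 (adjusted p = 0.225), without replicate 1 (0.109) or 2 (0.0636) of the 6 h glucose group, or with only the compared groups in the fit (0.141).

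**Figure D2:**
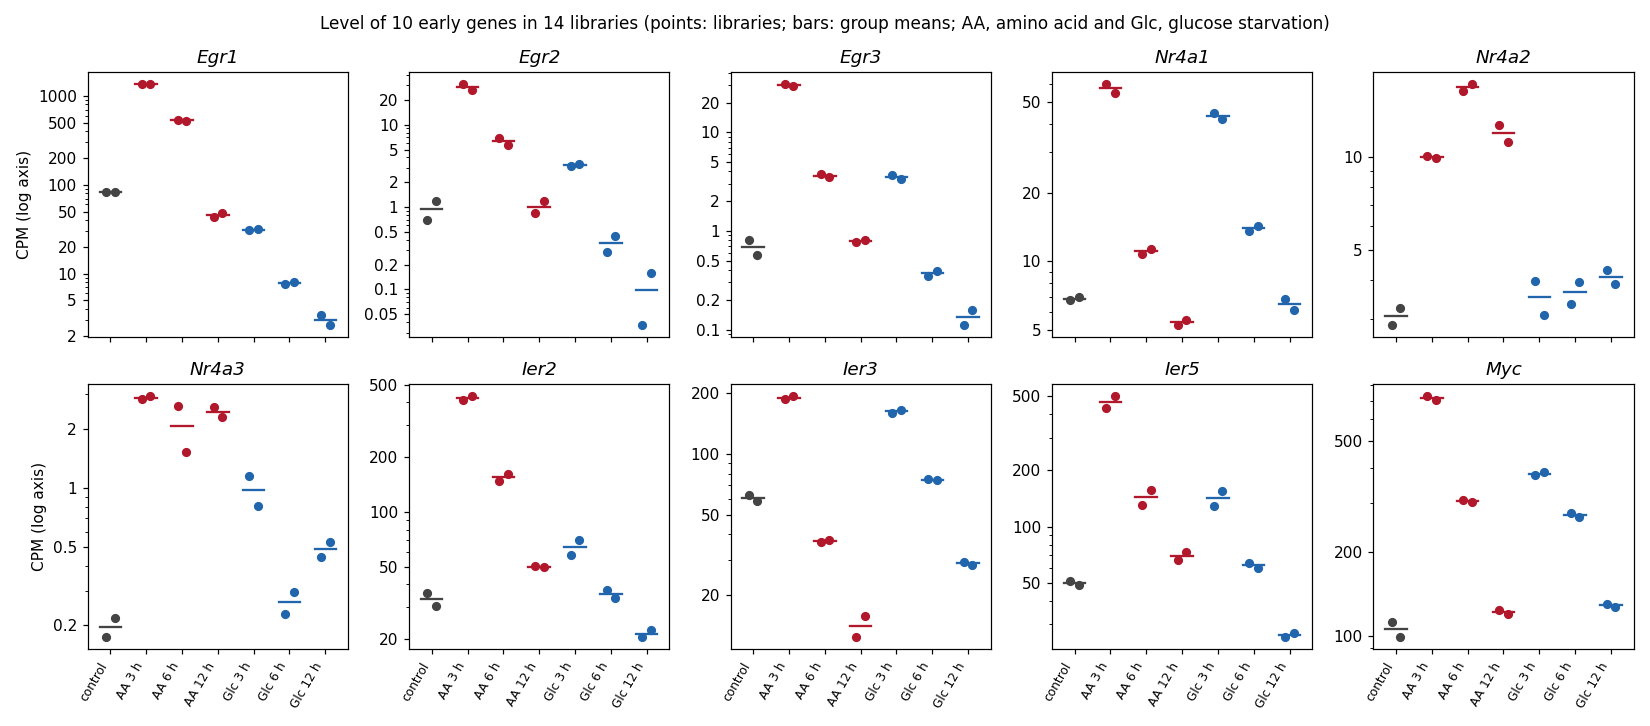
Level of each of the 10 genes in every library (CPM with TMM scaling, log y axis) by group (x axis), with 2 points per group. Egr1 spans from 2.66 to 1361 CPM without overlap between groups, while some neighbouring groups overlap in Egr2, Egr3, Nr4a1, Nr4a2, Nr4a3, Ier2 and Ier5. The 2 libraries of Egr2 at 12 h without glucose lie apart, at 0.0371 and 0.159 CPM.

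The NR4A genes did not move together. Nr4a1 had 6.74 and 6.96 CPM in the control, 59.8 and 54.8 CPM after 3 h without amino acids, 10.7 and 11.4 CPM after 6 h and 5.27 and 5.53 CPM after 12 h. In the absence of glucose it had 44.8 and 42.0 CPM after 3 h, 13.6 and 14.3 CPM after 6 h and 6.87 and 6.11 CPM after 12 h. Both starvations were thus far above the control at 3 h, and the control and 12 h without glucose overlapped. Nr4a1 rose 8.36-fold after 3 h without amino acids (log2 3.06 ± 0.10; edgeR adjusted p = 2.49e-21) and 6.34-fold after 3 h without glucose (log2 2.66 ± 0.10; edgeR adjusted p = 2.37e-19). At 6 h it was still 1.61-fold (log2 0.69 ± 0.10) and 2.04-fold (log2 1.03 ± 0.10) above the control, and it was lower after 12 h without amino acids (log2 -0.34 ± 0.11; edgeR adjusted p = 0.00631). That last call was lost with library totals (adjusted p = 0.085).

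Nr4a2 was the only member whose highest group mean came at 6 h without amino acids, and no starved time before 3 h was sampled. It had 2.88 and 3.26 CPM in the control, 10.0 and 9.93 CPM after 3 h without amino acids, 16.3 and 17.2 CPM after 6 h and 12.6 and 11.2 CPM after 12 h. Without glucose it stayed between 3.09 and 4.31 CPM at all 3 times. The amino acid libraries were all above the control and all glucose libraries, while the control and the 3 h glucose libraries overlapped. It rose 3.25-fold after 3 h (log2 1.70 ± 0.15; edgeR adjusted p = 3.64e-11) and 5.45-fold after 6 h (log2 2.45 ± 0.14; edgeR adjusted p = 4.74e-15) without amino acids, and was still 3.87-fold above the control at 12 h (log2 1.95 ± 0.14; edgeR adjusted p = 7.04e-13). Under glucose starvation only the 12 h value passed (log2 0.42 ± 0.16; edgeR adjusted p = 0.0207), and this call was lost with library totals (adjusted p = 0.081), with summed transcripts (0.0897), without control replicate 1 (0.146) and without replicate 1 of the 12 h glucose group (0.155).

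Nr4a3 was the scarcest member in the control. It had 0.174 and 0.219 CPM in the control, or 8 and 10 reads, 2.83 and 2.93 CPM after 3 h without amino acids, 2.60 and 1.52 CPM after 6 h and 2.58 and 2.30 CPM after 12 h. Under glucose starvation Nr4a3 had 1.14 and 0.809 CPM after 3 h, 0.230 and 0.297 CPM after 6 h and 0.446 and 0.531 CPM after 12 h. Its level stayed up over the 3 times without amino acids, and no pair of neighbouring means among them passed the test. It rose 14.4-fold after 3 h without amino acids (log2 3.85 ± 0.38; edgeR adjusted p = 5.02e-10), 10.3-fold after 6 h (log2 3.36 ± 0.38; edgeR adjusted p = 7.32e-09) and 12.3-fold after 12 h (log2 3.62 ± 0.38; edgeR adjusted p = 1.17e-09). After 3 h without glucose it rose 4.90-fold (log2 2.29 ± 0.42; edgeR adjusted p = 5.5e-05). The call at 12 h without glucose (log2 1.29 ± 0.45; edgeR adjusted p = 0.0162) was lost without control replicate 1 (adjusted p = 0.0996) and without replicate 2 of the 12 h glucose group (0.0701).

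Ier2 and Ier5 were highest after 3 h without amino acids, whereas Ier3 was nearly as high after 3 h without glucose. Ier2 had 36.0 and 30.6 CPM in the control, 411 and 433 CPM after 3 h without amino acids, 149 and 162 CPM after 6 h and 50.4 and 49.7 CPM after 12 h. Without glucose it had 57.8 and 69.8 CPM after 3 h, 37.1 and 33.4 CPM after 6 h and 20.5 and 22.4 CPM after 12 h. All amino acid libraries lay above the control, and the 6 h glucose libraries overlapped it. Ier2 rose 12.7-fold after 3 h without amino acids (log2 3.66 ± 0.09; edgeR adjusted p = 1.77e-21) and 1.92-fold after 3 h without glucose (log2 0.94 ± 0.08; edgeR adjusted p = 1.46e-09), and fell after 12 h without glucose (log2 -0.64 ± 0.09; edgeR adjusted p = 9.8e-07).

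Ier5, the HSF1 regulator, had 51.2 and 48.5 CPM in the control, 432 and 500 CPM after 3 h without amino acids, 130 and 158 CPM after 6 h and 66.4 and 72.8 CPM after 12 h. Without glucose it had 129 and 156 CPM after 3 h, 64.0 and 59.97 CPM after 6 h and 25.5 and 26.8 CPM after 12 h. The libraries of 6 h without amino acids and 3 h without glucose overlapped. It rose 9.35-fold after 3 h without amino acids (log2 3.23 ± 0.11; edgeR adjusted p = 1.26e-12) and 2.85-fold after 3 h without glucose (log2 1.51 ± 0.11; edgeR adjusted p = 1.9e-08), and fell after 12 h without glucose (log2 -0.93 ± 0.11; edgeR adjusted p = 3.98e-06). Its small rise after 6 h without glucose (log2 0.31 ± 0.11; edgeR adjusted p = 0.0259) was lost with library totals (adjusted p = 0.167), without control replicate 1 (0.109) or 2 (0.198) and without replicate 1 of the 6 h glucose group (0.126).

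Ier3 had 62.5 and 58.7 CPM in the control, 188 and 194 CPM after 3 h without amino acids, 36.7 and 37.6 CPM after 6 h and 12.4 and 15.7 CPM after 12 h. Without glucose it had 160 and 166 CPM after 3 h, 75.0 and 74.4 CPM after 6 h and 29.1 and 28.3 CPM after 12 h. No pair of groups overlapped, and amino acid starvation gave both the highest and the lowest libraries. Ier3 rose 3.15-fold after 3 h without amino acids (log2 1.66 ± 0.07; edgeR adjusted p = 2.72e-18) and 2.69-fold after 3 h without glucose (log2 1.43 ± 0.07; edgeR adjusted p = 2.4e-16). It fell below the control at 6 h (log2 -0.70 ± 0.07; edgeR adjusted p = 7.16e-10) and 12 h (log2 -2.11 ± 0.08; edgeR adjusted p = 6.08e-20) without amino acids, and at 12 h without glucose (log2 -1.08 ± 0.07; edgeR adjusted p = 2e-13). At 6 h without glucose it was slightly higher (log2 0.30 ± 0.07; edgeR adjusted p = 0.000661).

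Myc was the one gene of the 10 that was called higher than the control at all 6 starved times. It had 112 and 98.7 CPM in the control, 726 and 705 CPM after 3 h without amino acids, 306 and 303 CPM after 6 h and 124 and 120 CPM after 12 h. Without glucose it had 377 and 388 CPM after 3 h, 276 and 267 CPM after 6 h and 130 and 127 CPM after 12 h. By 12 h the libraries of both starvations lay just above those of the control, and next to each other. Myc rose 6.80-fold after 3 h without amino acids (log2 2.77 ± 0.06; edgeR adjusted p = 4e-25) and 3.63-fold after 3 h without glucose (log2 1.86 ± 0.06; edgeR adjusted p = 7.74e-21). At 12 h it remained 1.16-fold above the control without amino acids (log2 0.21 ± 0.06; edgeR adjusted p = 0.00206) and 1.22-fold without glucose (log2 0.29 ± 0.06; edgeR adjusted p = 8.53e-05). The former was lost without control replicate 2 (adjusted p = 0.0872), without replicate 1 of the 12 h amino acid group (0.0798) and with only the compared groups in the fit (0.0661).

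Between genes, levels can be compared only per transcript length. In CPM per kilobase, the control means ran from 0.0344 for Nr4a3 to 53.6 for Ier3, with Myc at 45.0, Ier2 at 21.8, Egr1 at 18.4 and Ier5 at 15.2. After 3 h without amino acids Myc (306) and Egr1 (302) were the most abundant per kilobase, followed by Ier2 (277), and Nr4a3 (0.503) remained the scarcest. After 3 h without glucose Myc (164) and Ier3 (144) led, and Egr1 stood at 6.99. The order of the 7 groups in each gene was clear in most places: of 60 neighbouring pairs of group means over the 10 genes, 44 differed at an adjusted p below 0.05 and 16 did not, while 33.3% to 72% of all genes were called in either direction over the 21 contrasts of groups. The latter include 4 of the 6 pairs in Nr4a2 and 4 of the 6 in Nr4a3, and none in Egr1 or Ier3.

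**Figure D3:**
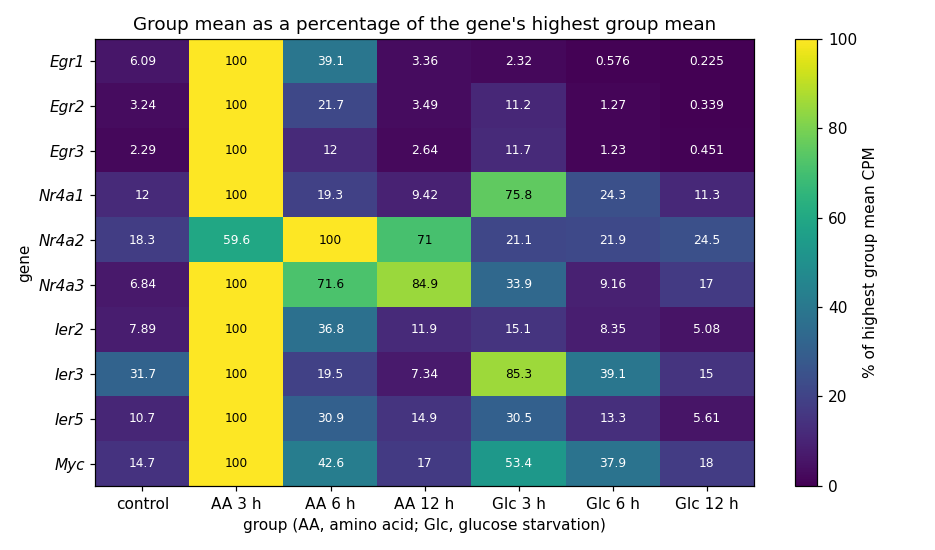
Mean level of each gene (rows) in each group (columns) as a percentage of that gene's highest group mean. Amino acid starvation for 3 h gave the highest mean for 9 genes and 6 h for Nr4a2, while 3 h without glucose reached 85.3% of the peak for Ier3, 75.8% for Nr4a1, 53.4% for Myc and 2.32% for Egr1.

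The starvations were compared directly at the same hour, which leaves the control and its handling out. After 3 h all 10 genes were higher without amino acids than without glucose, beside 26.7% of all genes called higher and 27.7% lower. After 6 h 8 were higher and Nr4a1 and Ier3 lower, beside 31.5% and 32.3%. After 12 h 7 were higher, Nr4a1 and Ier3 lower and Myc not called (log2 -0.08 ± 0.06; edgeR adjusted p = 0.233), beside 32.5% and 31.6%. Without glucose, Nr4a3 at 6 h and Egr2 and Egr3 at 12 h were too low for the count filter. These genes entered through other groups, so that they could hardly have been called lower without amino acids at those hours. The difference was widest for Egr1, at 43.1-fold (log2 5.43 ± 0.07) after 3 h, 67.8-fold (log2 6.08 ± 0.08) after 6 h and 14.7-fold (log2 3.88 ± 0.09) after 12 h, with edgeR adjusted p-values of 9.68e-30, 5.97e-30 and 8.56e-25. Egr2 differed 8.93-fold and Egr3 8.51-fold after 3 h, Ier2 6.61-fold, Ier5 3.28-fold, Nr4a3 2.95-fold, Nr4a2 2.83-fold and Myc 1.87-fold. The smallest differences at 3 h were those of Nr4a1 (log2 0.40 ± 0.08; edgeR adjusted p = 0.000173) and Ier3 (log2 0.23 ± 0.07; edgeR adjusted p = 0.00467).

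Nr4a1 and Ier3 changed sides with time. At 6 h without amino acids Nr4a1 was lower than at 6 h without glucose (log2 -0.33 ± 0.10; edgeR adjusted p = 0.00322) and Ier3 was lower as well (log2 -1.01 ± 0.07; edgeR adjusted p = 4.42e-13). At 12 h Ier3 was again lower (log2 -1.03 ± 0.08; edgeR adjusted p = 2.26e-12). The 12 h value of Nr4a1 (log2 -0.27 ± 0.11; edgeR adjusted p = 0.0298) was lost with library totals (adjusted p = 0.798), with only the compared groups (0.0729), and without replicate 1 of the 12 h amino acid (0.0935) or glucose (0.293) group, so that the count of members lower at 12 h went from 2 to 1. Nr4a2, Nr4a3 and the 3 EGR genes were higher without amino acids at all 3 hours, with 12 h log2 differences of 1.53 ± 0.14 for Nr4a2 and 2.33 ± 0.33 for Nr4a3. The excess of Myc at 6 h (log2 0.17 ± 0.06; edgeR adjusted p = 0.0107) was lost with summed transcripts (adjusted p = 0.0503) and without replicate 1 of the 6 h amino acid group (0.0584) or replicate 2 of the 6 h glucose group (0.0957). With library totals the median of all genes moved by 0.24 at 12 h and the share of higher among all calls from 50.8% to 65.5%. Myc moved to a log2 of 0.16 and then passed (edgeR adjusted p = 0.0156).

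**Figure D4:**
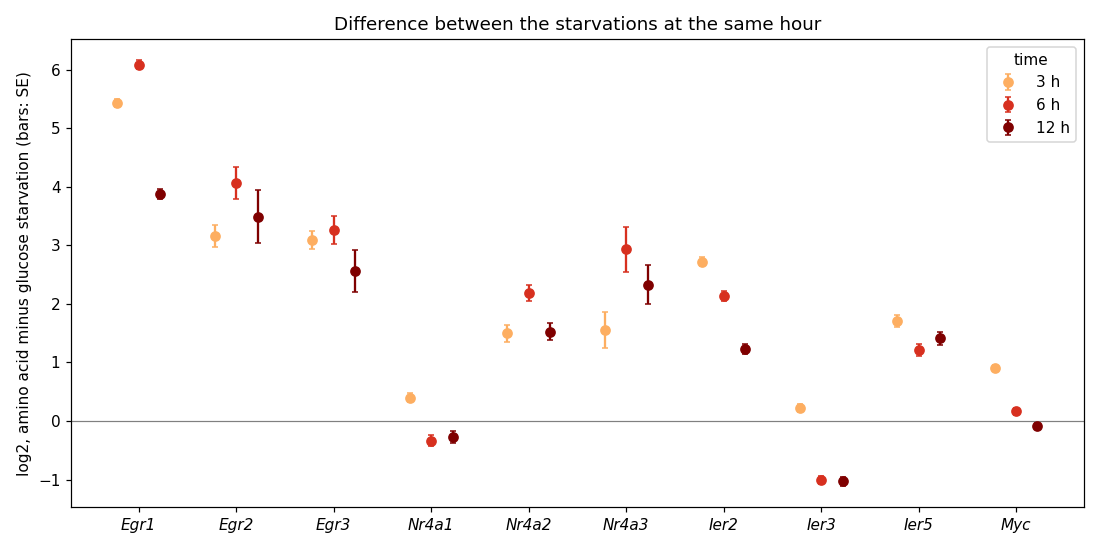
Log2 difference between amino acid and glucose starvation at the same hour (y axis, amino acid minus glucose) for each gene (x axis) at 3, 6 and 12 h, with bars of 1 standard error. Egr1 lies highest at 3 and 6 h, and Nr4a1 and Ier3 cross from above to below 0 between 3 and 6 h.

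After the first 3 h nearly every member came down in both starvations. From 3 to 6 h without amino acids 8 fell, Nr4a2 rose (log2 0.75 ± 0.13; edgeR adjusted p = 1.47e-05) and Nr4a3 did not pass (log2 -0.49 ± 0.28; edgeR adjusted p = 0.144), beside 24.7% of all genes higher and 25.4% lower. From 6 to 12 h 9 fell and none rose, beside 27.8% of all genes higher and 27.1% lower, Nr4a3 again being the exception. Without glucose 9 fell and none rose from 3 to 6 h, beside 17.8% of all genes higher and 15.5% lower. From 6 to 12 h 8 fell and none rose, beside 25.6% higher and 21.9% lower, and Nr4a2 was called in neither step. In these glucose steps Nr4a3 at 6 h and Egr2 and Egr3 at 12 h lay below the count filter. A rise to those times could thus hardly have been called for them. The steepest steps without amino acids were those of Egr1 from 6 to 12 h (log2 -3.54 ± 0.06) and Egr3 from 3 to 6 h (log2 -3.06 ± 0.15). Without glucose they were those of Egr3 (log2 -3.23 ± 0.25) and Egr2 (log2 -3.11 ± 0.30) from 3 to 6 h. The fall of Nr4a2 from 6 to 12 h without amino acids was lost with library totals (adjusted p = 0.0519). Those of Egr2 and Egr3, which had few reads, from 6 to 12 h without glucose were lost without replicate 2 of the 6 h group (adjusted p = 0.0863 and 0.0557) or replicate 1 of the 12 h group (0.147 and 0.0928), for Egr3 also with only the compared groups (0.0575). With library totals the share of higher among all calls went from 49.3% to 60.6% for the first amino acid step and from 50.6% to 69.3% for the second.

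Whether the change from 3 to 12 h differed between the starvations was tested as an interaction. It was called for 5 of the 10 genes, all in the direction of a steeper fall without amino acids, beside 25.7% of all genes called in that direction and 21.7% in the other. The differences of the changes were -1.55 ± 0.12 for Egr1 (edgeR adjusted p = 7.87e-12), -1.50 ± 0.12 for Ier2 (edgeR adjusted p = 1.18e-10), -1.26 ± 0.10 for Ier3 (edgeR adjusted p = 3.31e-11), -0.98 ± 0.08 for Myc (edgeR adjusted p = 2.49e-11) and -0.67 ± 0.14 for Nr4a1 (edgeR adjusted p = 0.000151), all in log2. Ier5 stood at -0.30 ± 0.15 (edgeR adjusted p = 0.117), Egr3 at -0.52 ± 0.49 (edgeR adjusted p = 0.412), Egr2 at 0.33 ± 0.54 (edgeR adjusted p = 0.654), Nr4a2 at 0.03 ± 0.21 (edgeR adjusted p = 0.931) and Nr4a3 at 0.77 ± 0.46 (edgeR adjusted p = 0.174). With library totals the median of all genes moved by 0.25 and the share of higher among all calls from 45.8% to 66%.

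Across the 14 libraries, log2 CPM of the members varied together to unequal degrees. These correlations describe libraries that come in pairs of the same group and share their scaling. Egr2 and Egr3 had a Pearson r of 0.98, Egr3 and Ier5 of 0.981 and Ier2 and Ier5 of 0.959. Nr4a1 was close to Myc (r = 0.928) and Ier3 (r = 0.907) but not to Nr4a2 (r = 0.00047), which in turn ran beside Nr4a3 (r = 0.857) and stood apart from Ier3 (r = -0.32).

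Among 9120 genes whose log2 CPM averaged 3 or more, the gene whose pattern was most like that of a member over the 14 libraries was Elf4 for Egr1 (r = 0.984), Kctd11 for Egr2 (r = 0.977) and Junb, an AP-1 subunit and itself an early gene, for Egr3 (r = 0.989). It was Noct for Nr4a1 (r = 0.987), Tra2a for Nr4a2 (r = 0.988) and Cnnm4 for Nr4a3 (r = 0.974). For the others it was the histone demethylase gene Kdm6b for Ier2 (r = 0.991), the kinase gene Plk2 for Ier3 (r = 0.991), Klhl21 for Ier5 (r = 0.984) and the kinase gene Plk3 for Myc (r = 0.988). The next in likeness were Pld2 and Mex3c for Egr1, Junb and Bach2 for Egr2, Kctd11 and Usp6nl for Egr3, Sox9 and Cttnbp2nl for Nr4a1, Gpbp1 and Iws1 for Nr4a2, and Ranbp9 and Stk17b for Nr4a3, all at r of at least 0.951. For Ier2 they were Ppp1r13l and Fbxo11, for Ier3 Ccn4 and Pkp2, for Ier5 Ctdp1 and Garre1, and for Myc Trio and Klf5, all at r of at least 0.976. Elf4 covered a narrower range than Egr1: its mean was 81.1 ± 1.6 CPM (SD, n = 2) in the control, 141 ± 5.8 CPM after 3 h without amino acids and 52.5 ± 2.9 CPM after 12 h without glucose.

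Genes upstream of the members were taken from fixed lists. In the comparisons with the control used here, the shares of all tested genes called higher and lower were 27.9% and 32.1% after 3 h without amino acids, 20.3% and 23.1% after 3 h without glucose, 34.9% and 32% after 12 h without amino acids and 30.4% and 28% after 12 h without glucose. Of 17 genes of the growth factor and MAP kinase cascade, 10 rose and 5 fell after 3 h without amino acids, and 5 rose and 5 fell after 3 h without glucose, with list medians of 0.16 and -0.02 in log2, the glucose counts being near the shares of all genes. Rps6ka5, which encodes a kinase of histone H3 and CREB, rose after 3 h without amino acids (log2 1.47; edgeR adjusted p = 2.24e-12), as did the receptor gene Egfr (log2 1.17; edgeR adjusted p = 3.35e-12). Of 12 genes for SRF, its cofactors and the CREB family with its coactivators, 9 rose and none fell after 3 h without amino acids, and 3 rose and none fell after 3 h without glucose. After 12 h 4 rose and 3 fell without amino acids, and 3 rose and 5 fell without glucose. Srf itself, an early gene as well, had 73.8 ± 8.9 CPM (SD, n = 2) in the control, 170 ± 7.9 CPM after 3 h without amino acids, 156 ± 9.6 CPM after 3 h without glucose and 27.0 ± 2.3 CPM after 12 h without glucose. The 3 h difference between the starvations in Srf did not pass (log2 0.12 ± 0.07; edgeR adjusted p = 0.163).

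Of the EGR partners and textbook EGR1 targets, 7 of 8 passed the filter. After 3 h 6 rose and none fell in either starvation, with list medians of 1.07 without amino acids and 0.95 without glucose. After 12 h 5 fell and none rose without amino acids, and 6 fell and 1 rose without glucose. Nab2, which encodes a corepressor of EGR1 and is itself induced by it, rose from 42.5 ± 3.5 to 194 ± 6.0 CPM (SD, n = 2) after 3 h without amino acids and to 96.3 ± 3.8 CPM without glucose. F3, the gene of tissue factor and a target of EGR1, rose from 15.8 ± 1.0 CPM to 62.9 ± 3.2 CPM without amino acids and to 260 ± 0.19 CPM without glucose. It was lower without amino acids than without glucose at 3 h (log2 -2.05 ± 0.06; edgeR adjusted p = 7.61e-21), where Egr1 was higher. Of the retinoid X receptor genes, Rxra fell (log2 -0.93) and Rxrb rose (log2 0.82) after 3 h without amino acids.

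Of the IER relatives and binding partners, 6 of 8 passed the filter. After 3 h without amino acids 3 rose and 2 fell, beside 27.9% and 32.1% of all genes. Without glucose 1 rose and 1 fell at 3 h, beside 20.3% and 23.1%, which for 6 genes is near the shares of all genes. Mcl1, the gene of a survival protein that IER3 is known to bind, rose after 3 h without amino acids (log2 1.52; edgeR adjusted p = 8.25e-16) and fell after 12 h without glucose (log2 -1.19; edgeR adjusted p = 2.81e-13). Ppp2r2a, which encodes a regulatory subunit of PP2A, rose after 3 h without amino acids (log2 0.91) and after 12 h (log2 1.16). Of 8 genes for factors that bind or degrade AU-rich transcripts, 6 rose and none fell after 3 h without amino acids, and 5 rose and 1 fell without glucose. Zfp36, whose protein tristetraprolin starts that decay, rose from 9.27 ± 0.65 to 49.6 ± 1.2 CPM (SD, n = 2) without amino acids and had 10.5 ± 0.20 CPM without glucose (edgeR adjusted p = 0.204). Zfp36l2, a relative, had 247 ± 8.3 CPM in the control, 463 ± 26 CPM after 3 h without amino acids and 468 ± 5.5 CPM after 3 h without glucose. At 12 h it was lower than the control in both starvations (log2 -2.01 without amino acids and -1.99 without glucose).

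Of the MYC network, the factors that share MAX or MLX with MYC or control it, 12 of 13 passed the filter. After 3 h without amino acids 7 rose and 3 fell, and after 3 h without glucose 2 rose and 4 fell, beside 27.9% and 32.1% of all genes called higher and lower in the former and 20.3% and 23.1% in the latter. Mnt, which encodes a MAX-binding repressor, had 18.2 ± 0.13 CPM (SD, n = 2) in the control, 85.3 ± 5.8 CPM after 3 h without amino acids and 36.5 ± 1.4 CPM after 3 h without glucose. Mxd1, which encodes another, was highest at 12 h in both starvations: without amino acids it went from 5.52 ± 0.12 CPM in the control to 16.8 ± 0.59, 30.1 ± 1.5 and 37.7 ± 0.26 CPM at the 3 times, and without glucose to 18.8 ± 0.32 CPM by 12 h.

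The 20 textbook MYC targets differed between the starvations at 12 h, when Myc itself did not pass with TMM scaling. After 3 h 14 rose and 4 fell without amino acids, and 16 rose and none fell without glucose. After 12 h 4 rose and 14 fell without amino acids, with a median log2 fold change of -0.34, whereas 14 rose and 1 fell without glucose, with a median of 0.27. Of all tested genes, 34.9% were called higher and 32% lower in the former comparison and 30.4% and 28% in the latter. Compared directly at 12 h, 3 were higher and 14 lower without amino acids, with a median of -0.70, beside 0.03 for all tested genes. Of all tested genes 32.5% were called higher and 31.6% lower there, and scaling by library totals moved their median by 0.24. With library totals Myc itself passed there, being higher without amino acids (log2 0.16; edgeR adjusted p = 0.0156). Tfrc, the gene of the transferrin receptor, had 215 ± 11 CPM (SD, n = 2) in the control, 61.1 ± 4.5 CPM after 12 h without amino acids and 524 ± 20 CPM after 12 h without glucose. Odc1, the gene of the first enzyme of polyamine synthesis, had 219 ± 3.7, 96.7 ± 4.2 and 257 ± 5.1 CPM in the same groups. Ncl, the gene of nucleolin, had 1406 ± 94, 1056 ± 42 and 2275 ± 49 CPM.

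**Figure D5:**
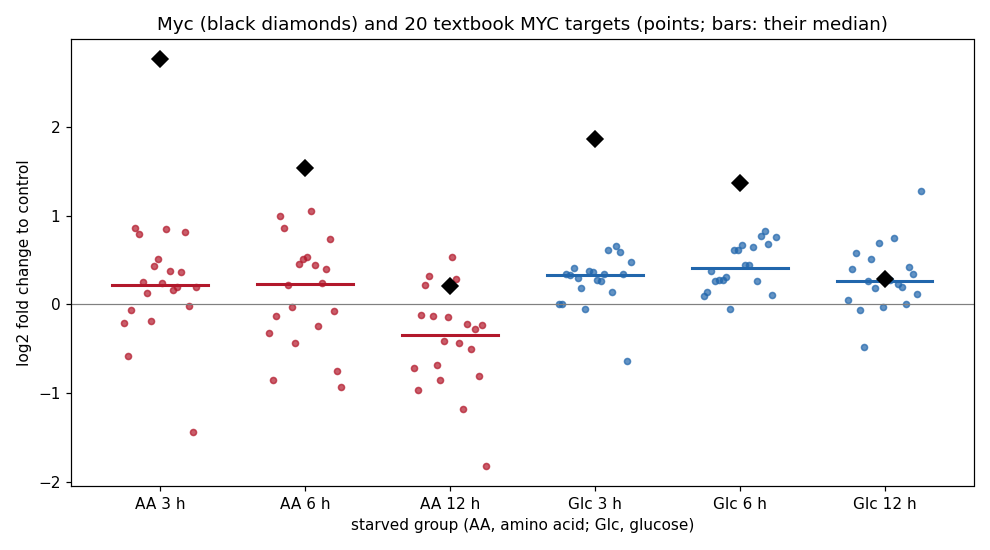
Log2 fold change to the control (y axis) of Myc (diamonds) and of 20 textbook MYC targets (points, with bars at their medians) in each starved group (x axis). At 12 h Myc is close to 0.2 to 0.3 in both starvations, while the medians of the targets are -0.34 without amino acids and 0.27 without glucose.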

How the data were processed

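The 14 libraries of fibroblast RNA were grouped by the sample labels. The authors deposited 1 table of raw read counts, whole numbers with a line for each of 67457 transcripts, beside the transcript's length in bases. In 58 lines no gene was named, and these lines had 0% of the reads. Per the submitters' processing notes, STAR, bedtools and the genome build GRCm39 were used. Versions, annotation release, counting rule and strand setting are not given in the sources used here, so reads of antisense or overlapping genes cannot be told apart. Of counts from 1 to 20, 69.2% to 73% per library were even, as when both ends of a fragment are counted, so that reads are not independent molecules and no counting intervals are given. In 13432 genes several transcripts were listed, whose counts can share reads, so the transcript of highest total count stood for its gene.

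The tests used edgeR 4.0.16 in R 4.3.3 (filterByExpr with a minimum count of 10, TMM, glmQLFit robust, glmQLFTest) and limma 3.58.1, with 7 group means over all 14 libraries and 7 residual degrees of freedom. All 10 members were among the 17696 genes tested. The biological coefficient of variation was 5.78%. Two-sided p-values were adjusted by Benjamini-Hochberg over all tested genes within each of 14 comparisons, and the standard error was the log2 fold change divided by the root of F. Log2 CPM used a prior count of 2. Named besides the members were, for each, the 3 genes of highest Pearson r, leaving out provisional symbols, and up to 3 called genes of smallest p per list, of which some are not reported here. Genes of the lists given by their place in the pathway or their contrast with a member (Rxra, Rxrb, Zfp36l2, Ncl, Kdr) were in part chosen after their values were seen. The members and lists were chosen with earlier results of these data known. Alternatives were scaling by RLE or library totals, DESeq2 1.42.0, no filter (at least 1 read), a stricter filter (4 libraries at a CPM of 1), fits of only the compared groups, summed transcripts, a block for the replicate number and the omission of each library in turn. Promoter windows came from RefSeq for GRCm38.p6, another build than that of the counts, and were searched by letters only.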

Additional observations from a re-analysis of the deposited data

Results flagged for a closer look

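For 5 genes the change from 3 h to 12 h differed between the starvations in edgeR's interaction test, with a steeper fall without amino acids (amino acid minus glucose, log2): Egr1 at -1.55, Ier2 at -1.50, Ier3 at -1.26, Myc at -0.983 and Nr4a1 at -0.672. Each of the 5 started higher at 3 h without amino acids than without glucose. By 12 h Egr1 and Ier2 were still higher without amino acids, Ier3 and Nr4a1 were lower, and Myc did not pass (edgeR adjusted p = 0.233). No group held 4 or more samples, so that no library could be tested as standing apart from its group.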

How the results depend on the processing

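Of 340 main values, all counts, recomputed under alternatives that keep all libraries, 337 stayed equal to the main count or close to it. Close means within a fixed ratio, so a small change in a count was not treated as a move. For example, with library totals Nr4a1 no longer counted as lower than the control at 12 h without amino acids. The other 3 values moved further. The count of members lower at 12 h without amino acids than without glucose was 1 instead of 2 with library totals and with only the compared groups. The count higher at 12 h without glucose than in the control was 1 instead of 3 with only the compared groups. Leaving out each library in turn, these counts ran from 1 to 2 and from 1 to 3. Of 1119 values of single members, 13 lost their call, 3 gained one with the same sign and 3 changed sign. Sign changed with library totals for Ier2 at 6 h without glucose against the control (log2 -0.0494) and Myc between starvations at 12 h (0.16). Myc thereby gained a call as well (edgeR adjusted p = 0.0156). With summed transcripts Egr3 changed sign in the difference of the changes (0.00449). Of 1960 values with 1 library left out, 21 lost their call, 5 gained one and 12 changed sign, none of the 12 from a called value. Against the control, Egr2 at 12 h without amino acids ranged from -0.219 without control replicate 1 to 0.54 without control replicate 2, and it was -0.18 without replicate 2 of the starved group. Egr3 at that time ranged from -0.0258 to 0.474 and Ier2 at 6 h without glucose from -0.0314 to 0.204, each lowest without control replicate 2 and highest without replicate 1. Nr4a1 at 12 h without glucose ranged from -0.166 to 0.00883. For steps in time, Nr4a3 from 6 to 12 h without amino acids ranged from -0.0942 to 0.677 and Nr4a2 from 3 to 6 h without glucose from -0.11 to 0.248, with -0.0656 without 6 h replicate 2. In the difference of the changes, Egr2 ranged from -0.509 to 1.51 and Nr4a2 from -0.168 to 0.19, with -0.0641 without amino acid 12 h replicate 1 and -0.0419 without glucose 12 h replicate 2. Where 1 library was left in a group, it was assumed to vary like the others. The cause of these shifts was not tested. Nr4a3 at 6 h without glucose against the control gave no value with only these groups in the fit, since it failed the filter. The order of the groups was not rerun with no filter, the stricter filter, summed transcripts or only the compared groups.

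The replicate numbers did not pair the samples: over 21 pairs of groups, deviations from the group means correlated between -0.0349 and 0.0536. With a block for the replicate number, no call on a member was lost and Ier5 gained one in the difference of the changes (log2 -0.305; adjusted p = 0.0261), so that 6 members instead of 5 were called there. Depth limits Egr2, Egr3 and Nr4a3 most, which had 20 reads or fewer over the libraries of some groups.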
